A study of Mus musculus with 36 samples.

Results

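The AP site landscape of bone marrow was examined in the 2 AP libraries made from this tissue, which were compared with the 10 AP libraries of the 5 other tissues of the same animals (PBMCs, brain, heart, liver and sperm). All 12 libraries came from C57BL/6J mice, an inbred laboratory strain, that were male and 24 months old. The labels give no transgene and no treatment, and the groups differ in tissue and in how it was prepared. According to the labels 2 mice supplied every tissue, and each tissue has 2 replicates. Red cells of the bone marrow had been lysed before DNA was isolated, PBMCs (mononuclear cells of blood) had been taken from a Ficoll gradient, and sperm were motile cells from the tail of the epididymis. Sperm DNA was purified with another kit than the DNA of the other tissues. The bone marrow libraries held 564343 and 945695 AP positions, out of 8824020 in the 12 libraries counted library by library. Which animal a replicate number stands for is not stated. DNA came from bulk tissue, so a difference in the mix of cells and a difference within cells cannot be told apart, and the identity of each tissue rests on its label.

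An AP (apurinic or apyrimidinic) site is a nucleotide that has lost its base while the sugar and phosphate of the strand are still in place. Bases are lost spontaneously, purines more readily than pyrimidines, and DNA glycosylases remove damaged bases in the first step of base excision repair, after which an AP endonuclease cuts the strand next to the site. Bone marrow is the site of blood formation in the adult animal and holds stem and progenitor cells, maturing myeloid, erythroid and lymphoid cells, and stroma. SSiNGLe-AP is an assay that reads AP sites at single-nucleotide resolution. Each position was counted here 1 time per library, whatever its read count.

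The 10 other AP libraries held between 460719 and 963258 positions, with a median of 739741, so that the first bone marrow library was the 10th deepest of 12 and the second the 2nd deepest. A read count above 1 was found at 0.341% and 0.364% of the bone marrow positions. The median protein-coding gene held 6 and 9 positions in the bone marrow libraries, and the median 100 kb window held 20 and 34. Few differences in a single short gene could be detected with so few positions. Only 2234 nucleotides carried an AP position in both bone marrow libraries, which is 0.396% of the smaller library, and 1968 of them were in no other library. At 2 libraries per tissue the exact permutation tests below can give no p smaller than 0.0152, and the p-values measure the spread between these 12 libraries.

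The base at AP positions could be read where RefSeq (GRCm38.p6) gives promoter sequence, that is from 250 bases before to 50 bases after 32851 gene starts. These windows held 4527 and 7192 bone marrow positions. Along the listed strand the base at the position was a purine for 74.0% of the positions of bone marrow 1 (95% Wilson interval 72.7% to 75.3%) and 76.6% of those of bone marrow 2 (75.6% to 77.6%). The 10 other libraries lay between 71.1% and 76.6% with a median of 75.0%, and purines make up 50% of the window bases over both strands. A was found at 37.6% and 40.3% of the bone marrow positions, against 23.3% of the window bases, and G at 36.5% and 36.3%, against 26.7%. Sequence before the position was also uneven. The base 2 nucleotides 5′ of the position was C or G at 89.7% and 90.6% of the bone marrow positions, against 53.4% of the window bases, and A at only 4.02% and 3.80%. In the other libraries that base was C or G at 86.8% to 91.1%, so this feature was shared by all tissues. How the listed strand and base relate to the lost base in the chemistry of the assay is not given in the sources used here.

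The nucleotides that recurred in both bone marrow libraries show this context directly. From the promoter windows 12 such nucleotides with 10 known bases on each side are shown, and this is not a full count. These 12 are printed 5′ to 3′ along the listed strand, named by the gene of the window, with the AP position as the capital in the middle.
Gal3st2: agggaagggcCagctgtccct
Gm40101: taattctcccAgcgtcaggca
Fam229a: ctaaatgccgGaacgctctgg
Mpv17: cttgtgtccaAacaacagccc
Ces5a: cacagatgccAtgtgggtcag
Slc7a6os: cgtggctgggCctgggtgcag
Myo1c: ccctctggccAagagacctcc
Pgap3: tgctcctgggCgcaaatcgcc
Serpina16: gaccccttccAcatcaggctg
Txndc11: ccgctttcctCaagtgggcct
Nolc1: cgcgtgtgggAccggaagcaa
Sfxn4: tgcaggccccGtttgctttgc
The marked base is A in 6, G in 2, C in 4 and T in 0 of them, and all 12 have C or G at the base 2 nucleotides before it. The printed stretch of Myo1c is chr11:75650493-75650513 on the plus strand, with the AP position at 75650503, and that of Mpv17 is chr5:31154288-31154308 on the minus strand, with the AP position at 31154298. For 11 of the 12 the nucleotide was listed in no library of another tissue.

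The first question was whether AP sites of bone marrow fall in genes, at gene ends and in gene-dense or gene-free DNA in other shares than in the remaining tissues. Bone marrow had the highest tissue mean of the 6 tissues for the share in genes, at 5′ and 3′ ends and in gene-dense windows, and the lowest for gene-free windows. None of these differences passed the exact permutation test, and in each at least 1 library of another tissue reached the nearer bone marrow library. Genes (49943 RefSeq genes, whole spans) held 62.4% of the positions of bone marrow 1 and 61.9% of those of bone marrow 2. The other libraries ranged from 59.6% (liver 1) to 62.1% (sperm 1) with a median of 61.5%. The means, 62.1% ± 0.323 (SD, n = 2) and 61.2% ± 0.724 (SD, n = 10), differed by 0.921 percentage points (two-sided exact permutation test, p = 0.121, adjusted over 10 measures p = 0.152). For protein-coding genes the shares were 53.6% and 53.1% in bone marrow, and between 50.8% and 53.2% elsewhere (exact permutation test, p = 0.0909). Only sperm 1 lay between the bone marrow libraries in either measure.

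Among the 6 shares of genes, gene ends and windows, that at gene starts had the highest ratio of bone marrow to the rest. The share of positions within 1 kb of the 5′ end of a protein-coding gene was 2.63% and 2.50% in bone marrow, and 2.02% (liver 1) to 2.53% (sperm 1) with a median of 2.32% in the others. Gene ends, here and in the profiles below, are those of the 17492 of 21887 protein-coding genes whose orientation was known. The bone marrow mean was 1.11 times that of the other libraries, at a difference of 0.258 points (exact permutation test, p = 0.0758, adjusted p = 0.152). Without adjustment this share passed in 2 of 22 alternatives, at p = 0.0455 in the exact permutation test. These were thinning every library to 460719 positions and a distance of 5000 bp. With tissue means as units the difference was also 0.258 points, but with 6 splits that test cannot pass. At 3′ ends the shares were 2.29% and 2.27%, against 2.00% to 2.27% elsewhere (exact permutation test, p = 0.106). Gene-dense windows, the 1043 windows of 100 kb with at least 5 protein-coding genes, held 6.71% and 6.25% of the bone marrow positions and 5.25% to 6.31% of those of other libraries (exact permutation test, p = 0.0909). The 4304 gene-free windows held 8.04% and 8.47% in bone marrow and 8.38% to 10.0% in the others (exact permutation test, p = 0.121). The ratio of AP density between these kinds of window was 3.44 and 3.04 in bone marrow and 2.16 to 3.11 elsewhere (exact permutation test, p = 0.0909). Bone marrow 1 carried much of the difference in dense windows: without it the difference in their share fell from 0.568 to 0.339 points and that in the ratio from 0.488 to 0.288.

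**Figure D1:**
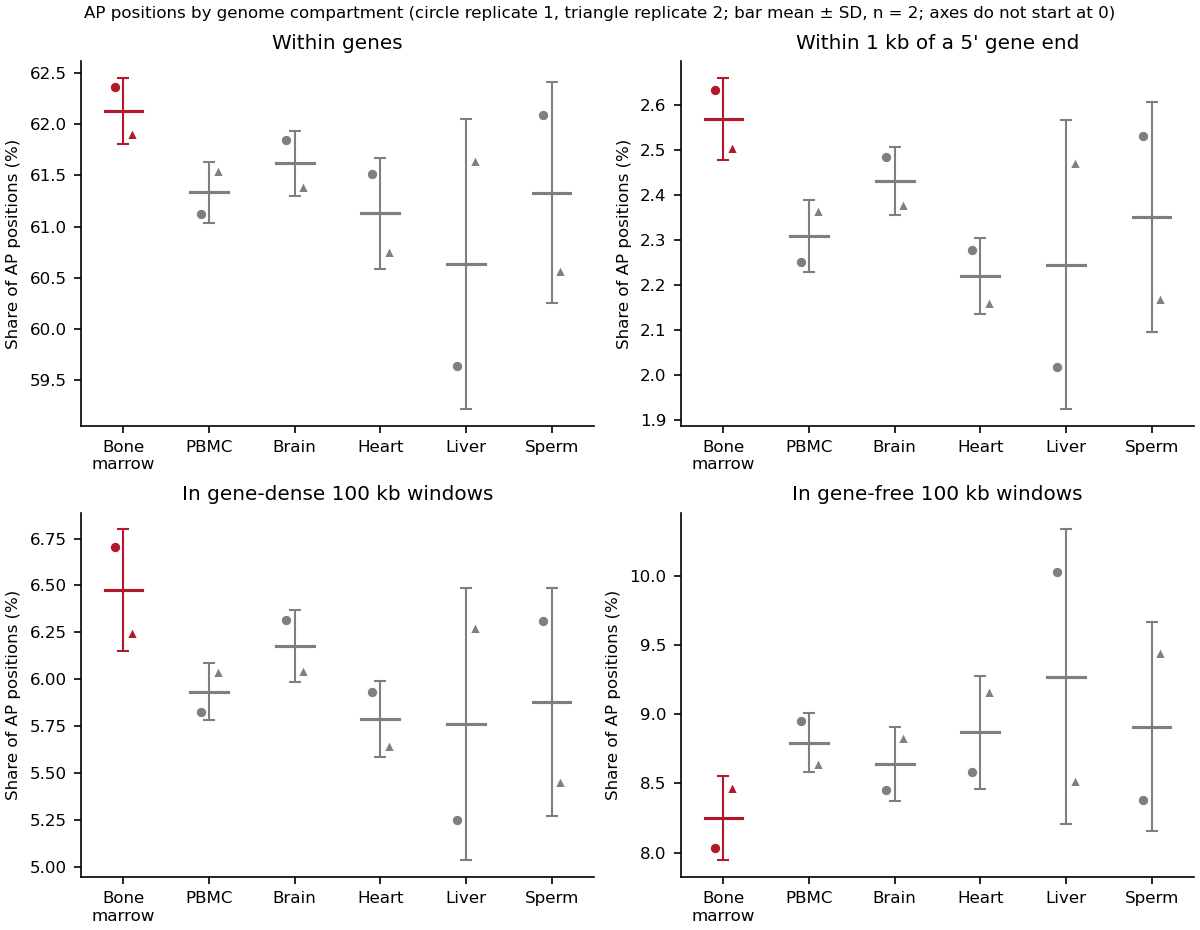
Share of AP positions (%, vertical axes not starting at 0) in 4 genome compartments for each of the 12 libraries, with the tissue mean ± SD (n = 2) as bars. Bone marrow 1 is the highest of the 12 libraries for genes, 5′ ends and gene-dense windows and the lowest for gene-free windows, bone marrow 2 lies among the nearest libraries of sperm, brain and liver, while liver and sperm show wider gaps between their replicates than bone marrow.

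The spread within tissues sets the scale for these values. The replicates of bone marrow differed by 0.457 points in the share within genes, while the median gap over the 6 tissues was 0.610 and the widest, in liver, was 2.00. Counting error was smaller, with 95% Wilson intervals of at most ±0.140 points for the share in genes and ±0.0448 for 5′ ends (intervals cover counting error only). The share of positions in genes with known orientation that lay on the strand of the gene was 50.1% and 50.4% in bone marrow and 49.1% to 51.0% elsewhere, a difference of -0.0989 points (exact permutation test, p = 0.833). Its sign was not stable, as it was 0.0397 without bone marrow 1 and 0.0326 without sperm.

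The densities were then set out over all classes of gene content, a breakdown chosen after the values were seen and given without a test. In windows with 2 to 4 protein-coding genes, the 6300 windows just below the gene-dense class, bone marrow had 49.4 and 48.4 AP positions per window per 1000000 positions, above each of the 10 others (44.5 to 48.2). In the 5244 windows with other genes but no protein-coding gene it had 30.0 and 30.7, below each of the others (30.9 to 33.0). Windows with 1 protein-coding gene also lay below, at 41.2 and 41.5 against 41.5 to 42.2. The 986 windows with 5 to 9 protein-coding genes had 63.1 and 58.7 in bone marrow, against 49.6 to 59.4. Here 3 other libraries (brain 1, liver 2 and sperm 1) were above bone marrow 2. In the 57 windows with 10 or more protein-coding genes the values were 84.3 and 80.5, and 1 of the other libraries, sperm 1 at 81.8, was above the lower of them. The ratio of the bone marrow mean to the mean of the others rose with gene content, from 0.927 in windows without genes to 0.959, 0.988, 1.04, 1.09 and 1.12. Of the windows in the top class 78.9% were higher in bone marrow in the fit across all windows, against 40.2% of the gene-free windows.

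Protein-coding genes were also set out by length, again chosen after the values were seen and with no test. Protein-coding genes over 500 kb (227 genes, many of them for synaptic and cell adhesion proteins) had 0.369 and 0.383 AP positions per kb per 1000000 positions in bone marrow (LPKM-AP, the unit used for genes below). All 10 other libraries were higher, from 0.385 in sperm 1 to 0.423 in liver 1 with a median of 0.397, so the margin to the nearest library was narrow. Summed counts, equal depth and autosomes only also left the groups without overlap, though summed counts could change little, as few positions had a read count above 1. Leaving out sperm could not make the groups overlap, so its outcome was fixed in advance. The 7926 protein-coding genes under 10 kb had 0.857 and 0.811 in bone marrow and 0.663 to 0.828 elsewhere, with 2 other libraries above bone marrow 2. Genes of 10 to 50 kb had 0.619 and 0.592 in bone marrow, against 0.520 to 0.596 in the others. For genes of 50 to 100 kb both bone marrow values (0.536 and 0.527) were above all others (0.496 to 0.525), but the median log2 difference of this class after TMM scaling was -0.01, of the opposite sign. Genes of 100 to 500 kb, at 0.508 and 0.509 against 0.497 to 0.510, lay within the range of the others. The ratio of means fell through the classes from 1.09 under 10 kb to 0.940 over 500 kb.

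**Figure D2:**
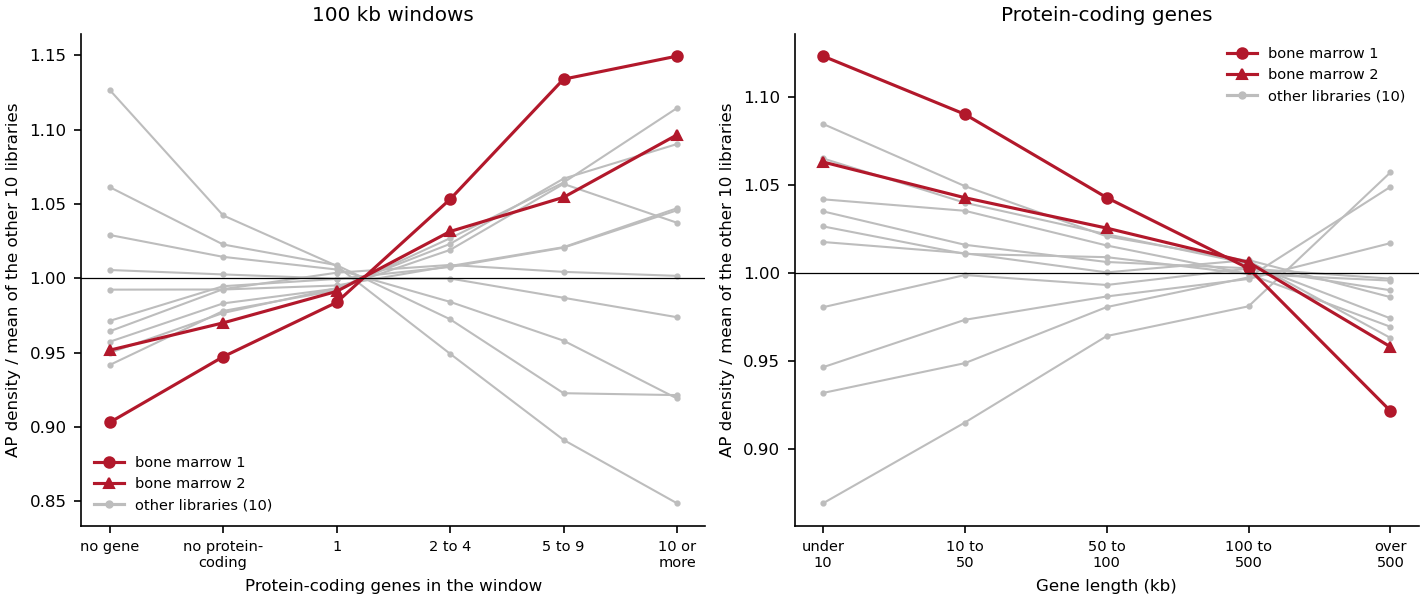
AP density of each library divided by the mean of the 10 libraries of other tissues, for 100 kb windows by their number of protein-coding genes (left) and for protein-coding genes by length in kb (right). Both red bone marrow lines climb with gene content and fall with gene length, and the grey lines of other libraries spread to both sides, with sperm 1, brain 1 and liver 2 close to bone marrow 2.

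Around gene starts bone marrow and the other libraries were furthest apart close to the start. Within 250 bp of the 5′ end the AP density of bone marrow was 1.97 and 1.89 times that 50 to 100 kb away, and the other libraries had 1.60 (liver 1) to 1.93 (sperm 1) with a median of 1.80. Between 1 and 5 kb upstream the bone marrow values were 0.960 and 0.951, and between 1 and 5 kb downstream 1.22 and 1.22, in both zones inside the range of the others (0.932 to 0.976 and 1.20 to 1.23). Within 250 bp of the 3′ end bone marrow had 1.23 and 1.31, and the others 1.26 to 1.38. Bone marrow 1 was thus the lowest of the 12 libraries there.

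**Figure D3:**
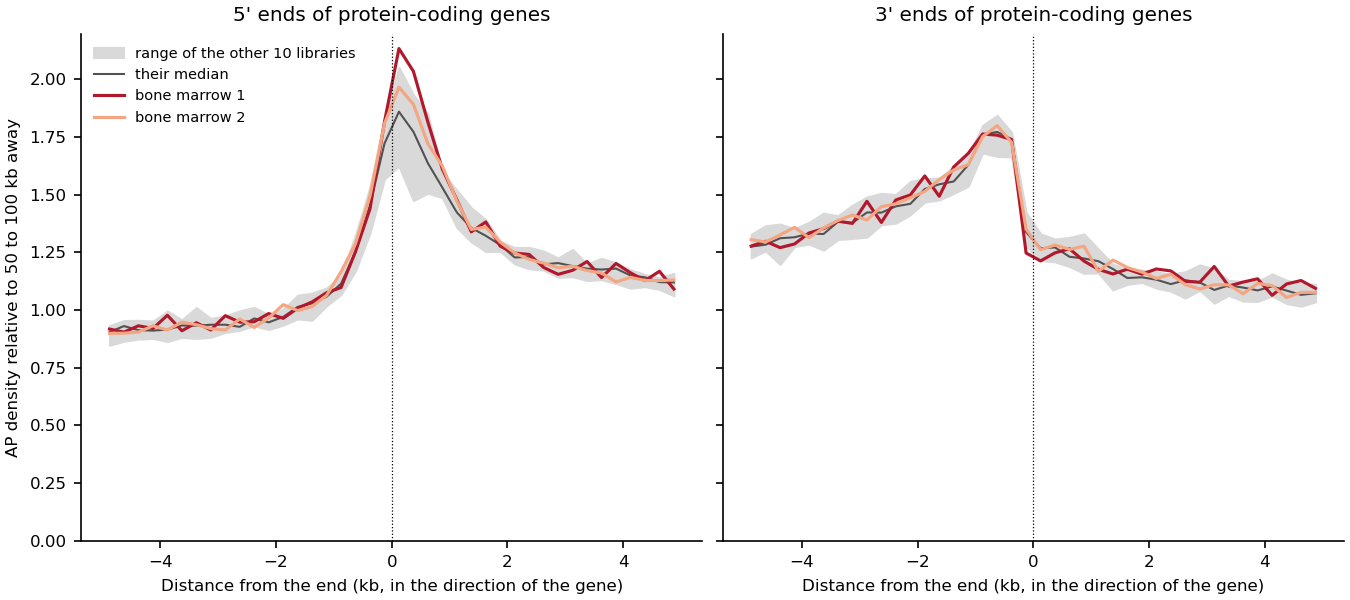
AP density in 250 bp bins by distance (kb) from the 5′ ends (left) and 3′ ends (right) of protein-coding genes, relative to the density 50 to 100 kb away. The bone marrow lines run in the upper part of the grey range of the 10 other libraries just after the 5′ end, with bone marrow 1 above it, and inside that range around the 3′ end, apart from bone marrow 1 right at the end.

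Promoter windows were also grouped by their GC content. In the 6542 windows with 60 to 70% GC, bone marrow had 0.339 and 0.318 AP positions per window per 1000000 positions, and 8 of the 10 other libraries were below both (0.197 to 0.327, median 0.268). In the 3148 windows with at least 70% GC it had 0.211 and 0.149, against 0.0925 to 0.167. In windows under 40% GC the values were 0.111 and 0.113, in the middle of the others (0.0865 to 0.135). The share of promoter-window positions that fell in windows of at least 60% GC was 32.8% and 30.6% in bone marrow, and 24.3% to 31.5% elsewhere, with a median of 27.5%. Of the base triplets that end at the AP position, CGG was found at 6.67% and 6.68% of the bone marrow positions in these windows and at 4.70% to 6.56% of the others, and CCA, the most frequent, at 12.5% and 12.7%, within the range of the others (9.67% to 12.7%).

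A pair of promoters show what single regions look like at this depth. They were picked after the values were seen, from a ranking that did not cover all protein-coding genes. Among the genes ranked, 5 were taken whose windows had the most bone marrow positions and at least 1 in each bone marrow library. Where those counts were equal, windows with fewer positions in the other libraries came first. Their high bone marrow counts therefore follow from the choice. In the rest of the 5 genes the other libraries together held 1 position (Chkb), 4 (Dcun1d5) and 16 (Ugt1a1). Flt3 encodes a receptor tyrosine kinase of early haematopoietic progenitors. Its 300-base window held 2 and 4 bone marrow positions, and the 10 other libraries held 4 together, at most 1 each. The 250 bases before its start (chr5:147400490-147400739, minus strand, RefSeq GRCm38.p6) overlap 1 other annotated gene and are printed with the nucleotides of bone marrow AP positions on either strand in capitals.
Flt3: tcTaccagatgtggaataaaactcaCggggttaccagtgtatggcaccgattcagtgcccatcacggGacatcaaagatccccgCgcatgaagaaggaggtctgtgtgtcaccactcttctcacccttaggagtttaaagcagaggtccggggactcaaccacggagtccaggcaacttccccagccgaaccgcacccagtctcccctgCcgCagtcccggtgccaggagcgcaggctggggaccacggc
Pym1, a factor that takes part in the recycling of exon junction complexes, had 3 and 2 positions in bone marrow and 4 in the other libraries together. Its 250 bases (chr10:128747629-128747878, plus strand) overlap no other gene, and the remaining positions of the window lie after the start.
Pym1: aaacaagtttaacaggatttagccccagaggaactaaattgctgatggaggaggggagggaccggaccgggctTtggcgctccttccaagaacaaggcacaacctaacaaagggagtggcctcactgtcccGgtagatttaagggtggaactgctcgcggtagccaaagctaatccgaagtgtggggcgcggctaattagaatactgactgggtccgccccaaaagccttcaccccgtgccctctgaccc
The capitals are spread over the Flt3 stretch and none is listed in both bone marrow libraries. Counts of this size carry wide counting error, and no gene start was tested by itself.

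Single genes were compared next, on the positions per gene, with levels given as LPKM-AP (positions in a gene per bp of its span and per position of its library, times 1e+09). With edgeR's quasi-likelihood test 0 of 41374 genes (0.0%) differed between bone marrow and the other 5 tissues at an adjusted p under 0.05, and DESeq2 called 1 gene. At an unadjusted p under 0.05 there were 1085 genes higher in bone marrow (2.62% of those tested) and 734 lower (1.77%). The higher genes were 59.7% of these with TMM scaling and 74.6% without scaling. The limma test on log2(LPKM + 1) called 15 genes, all of at most 1384 bp and with a mean of at most 1.58 positions per library. Both bone marrow libraries were above all 10 others for 723 genes (1.75%) and below them for 340 (0.822%). Values are given for the genes of smallest p whose mean was 20 positions or more.

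On the higher side the 5 genes of smallest p, at that limit of 20 positions, were Nlrc5, Lama5, Gm40874, Sirpa and Camkk2. Of these, Nlrc5 and Sirpa are known from immune cells. Nlrc5, the transactivator of MHC class I genes (chr8:94434335-94527272), held 57 and 70 positions in the bone marrow libraries. Its LPKM-AP was 1.09 and 0.796 in bone marrow, and 0.442 (liver 1) to 0.673 (brain 1) with a median of 0.562 in the others. The bone marrow values did not overlap with the rest but differed between themselves by more than the other libraries spanned. The log2 difference was 0.64 (SE 0.17, edgeR quasi-likelihood test, adjusted p = 0.483). Lama5 encodes the laminin alpha-5 chain of basement membranes (chr2:180176373-180225904). Its values were 1.54 and 1.52 in bone marrow and 0.456 (liver 1) to 1.29 (PBMC 1) in the others, a log2 difference of 0.65 (SE 0.17, edgeR, adjusted p = 0.670). For Sirpa, a receptor of myeloid cells that binds CD47 (chr2:129591042-129632228), they were 1.33 and 1.21, against 0.449 to 1.0 (log2 difference 0.69, SE 0.21, edgeR, adjusted p = 0.976). Camkk2, a calcium/calmodulin-dependent kinase, had 0.811 and 0.917 against 0.336 to 0.674, and the lncRNA gene Gm40874 1.40 and 1.10 against 0.459 to 0.953. In all 5 genes both bone marrow libraries lay above the other 10, as they did for 723 (1.75%) of all genes tested. The 5 were picked by smallest p in these same libraries, so their separation follows largely from the choice. In each the adjusted p of edgeR missed the threshold.

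On the lower side the gene with the smallest p was Sfi1, which encodes a centrin-binding protein of the centrosome (chr11:3131850-3203347). It held 576 and 964 positions, and its LPKM-AP was 14.3 and 14.3 in bone marrow, below all others (15.6 in liver 1 to 19.5 in sperm 1, median 17.2). The log2 difference was -0.36 (SE 0.08, edgeR quasi-likelihood test, adjusted p = 0.302). It was the gene that DESeq2 called (adjusted p = 0.0428), and edgeR called it when only protein-coding genes were tested (adjusted p = 0.0446). Over all alternatives its adjusted p ranged up to 1.0. Egfem1 (chr3:29081653-29691058) had 0.201 and 0.279 in bone marrow and 0.286 to 0.399 in the others (log2 difference -0.50, SE 0.12, edgeR, adjusted p = 0.483). Its bone marrow values came from 69 and 161 positions, and the log2 difference was -0.26 without bone marrow 1 and -0.83 without bone marrow 2. Chrna7, the alpha-7 subunit of nicotinic acetylcholine receptors (chr7:63098692-63212526), had 0.265 and 0.344 against 0.410 to 0.634 (log2 difference -0.81, SE 0.20, edgeR, adjusted p = 0.483). The X-linked gene Il1rapl2 had 0.0970 and 0.0662, and heart 1 at 0.0958 lay between them. The lncRNA gene A230004M16Rik had 0.144 and 0.139, against 0.181 to 0.293.

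**Figure D4:**
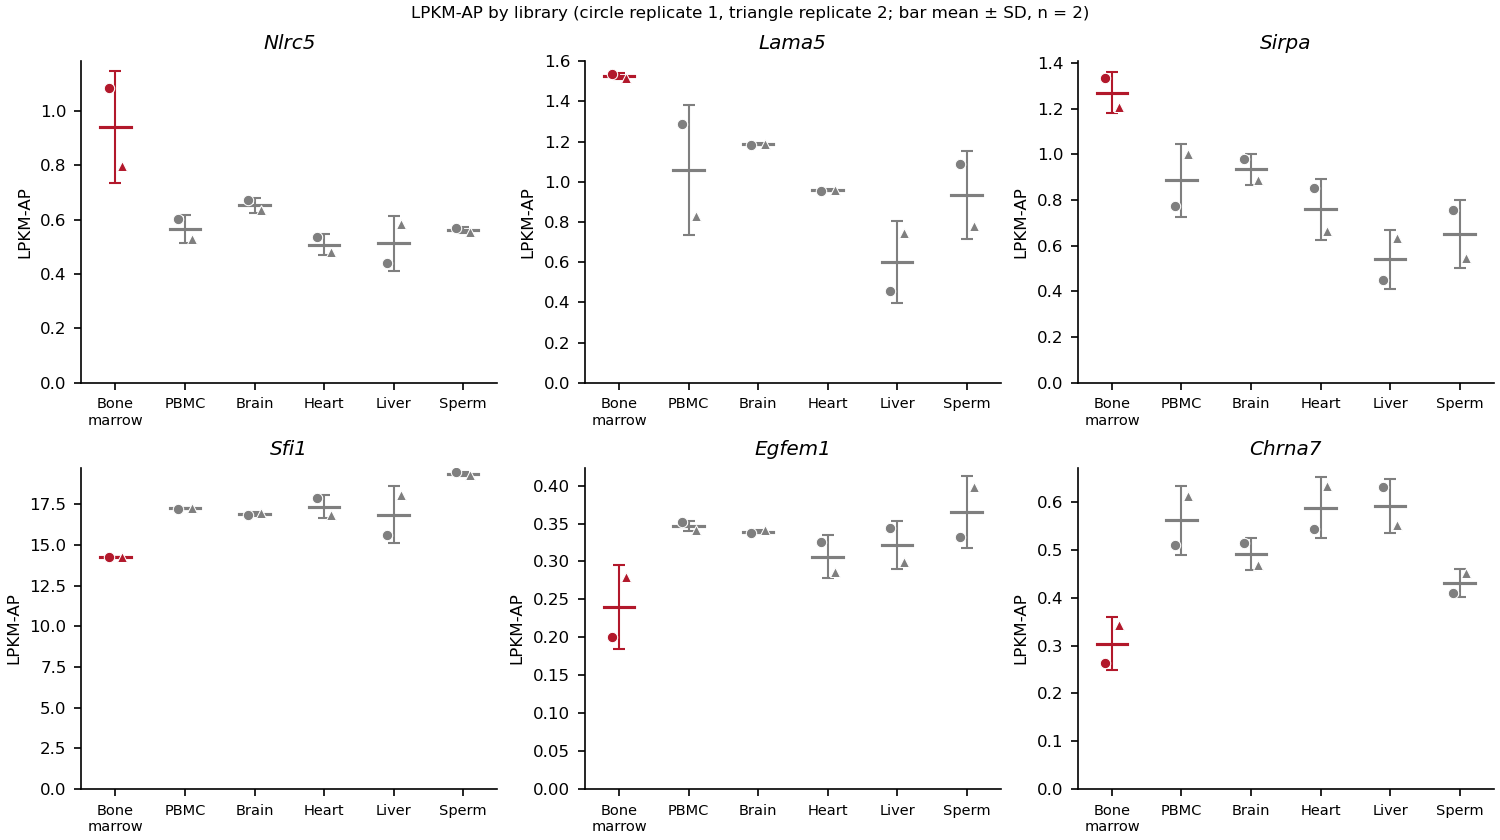
LPKM-AP of 6 genes in the 12 libraries, with the tissue mean ± SD (n = 2) as bars and vertical axes from 0. The red bone marrow points are above every grey point for Nlrc5, Lama5 and Sirpa and below every grey point for Sfi1, Egfem1 and Chrna7. All 6 are among the genes picked by smallest p in these same libraries.

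Very long genes had mostly negative log2 differences after TMM scaling. The TMM factors of the bone marrow libraries were 1.06 and 1.02, and the ratio of 0.940 given above for these genes carries no such scaling. Of the 227 protein-coding genes over 500 kb, 4.85% had a log2 difference above 0, with a median of -0.15, whereas over all genes tested the median was 0.04 and 53.8% were above 0. Among the 5440 genes tested with a mean of 20 positions or more, the median was -0.03 and 43.5% were above 0. Both bone marrow libraries were below all others for 11 of the 227 long genes and above them for 0. Over all genes tested they were below for 340 of 41374 (0.822%) and above for 723 (1.75%). Most of those genes held few positions. Among the 5440 genes with a mean of 20 positions or more they were below for 73 and above for 103. Apart from Egfem1 the 11 include Nlgn1, a synaptic adhesion protein, whose LPKM-AP was 0.247 and 0.259 in bone marrow (log2 difference -0.41, SE 0.11, edgeR, adjusted p = 0.483). Ctnna2, the neuronal alpha-catenin, had 0.303 and 0.348 (log2 difference -0.35, SE 0.09), and the protocadherin gene Pcdh9 0.240 and 0.236 (-0.36, SE 0.11). Macrod2 held 377 and 628 positions, with an LPKM-AP of 0.334 and 0.332 and a log2 difference of -0.25 (SE 0.08). The other 6 are Cdkal1, Ptprg, Ntm, Pard3b, Plcb1 and Csmd1, with log2 differences from -0.35 to -0.20. None of the 11 passed the adjusted threshold in edgeR. The length limit was chosen after the values were seen.

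**Figure D5:**
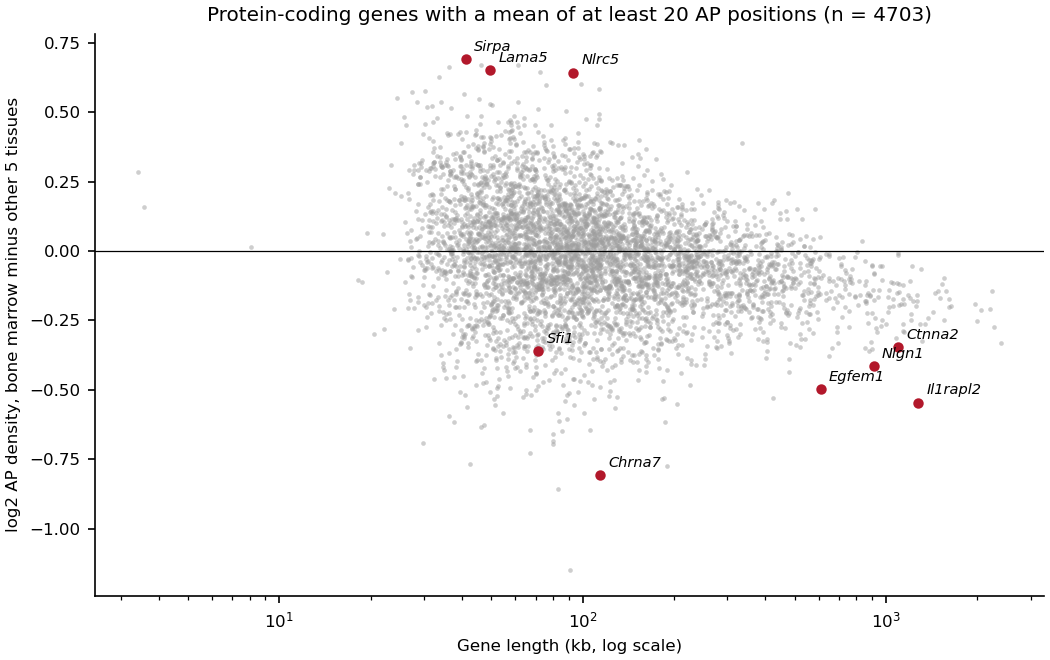
Log2 difference in AP density between bone marrow and the other 5 tissues (edgeR, TMM scaling) against gene length (kb, log scale) for the 4703 protein-coding genes whose mean was 20 AP positions or more. Nearly all genes over 500 kb lie below 0, and the labelled points are 9 genes named in the text.

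PBMCs are the other sample of blood cells and were compared with bone marrow by themselves. Here too 0 of 41374 genes (0.0%) passed in edgeR's quasi-likelihood test, with 617 genes higher (1.49%) and 849 lower (2.05%) in bone marrow at an unadjusted p under 0.05, 0 calls by DESeq2 and 14 by limma, the latter in genes of at most 2017 bp. Of the 5 higher genes of smallest p, Nlrc5 was again 1. Pstpip1, a cytoskeletal adaptor of blood cells (chr9:56078445-56128890), had an LPKM-AP of 1.05 and 1.32 in bone marrow and 0.762 and 0.635 in PBMCs (log2 difference 0.73, SE 0.25, edgeR, adjusted p = 0.994). Dennd5b had 0.359 and 0.344 against 0.174 and 0.151. Slc1a1, a glutamate transporter, had 0.967 and 0.791 against 0.530 and 0.450. The histone deacetylase gene Hdac5 had 1.39 and 1.17 against 0.638 and 0.665. The genes of small p on the lower side included A230004M16Rik, Egfem1, Chrna7 and Gabra5. Gabra5, a subunit of GABA-A receptors, had 0.309 and 0.300 in bone marrow and 0.521 and 0.462 in PBMCs. The comparison shares its bone marrow libraries with the one above.

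At the scale of 100 kb windows 0 of 26003 (0.0%) passed in edgeR's quasi-likelihood test, 0 by DESeq2 and 0 by limma. At an unadjusted p under 0.05, 780 windows (3.0%) were higher and 615 (2.37%) lower. The window of smallest p was chr15:80400001-80500000, which holds Enthd1 and 4 genes that are not protein-coding. It had 108 and 109 AP positions per 1000000 positions in bone marrow, and 49.3 (liver 1) to 77.9 (sperm 1) with a median of 66.1 in the others. The 2 bone marrow values were nearly equal and 1.65 times the mean of the other libraries (log2 difference 0.75, SE 0.16, edgeR, adjusted p = 0.0850). In edgeR it passed without sperm (adjusted p = 0.0230), without liver 2 (adjusted p = 0.00394) and without sperm 1 (adjusted p = 0.0390), and under no other alternative. A window on chromosome 19 (5600001 to 5700000) had 122 and 99.4, against 46.7 to 94.5. Its 6 protein-coding genes include Rela, a subunit of NF-kB, and Kat5, an acetyltransferase. The window chr7:128000001-128100000 holds Trim72 and Itgam, the alpha-M integrin of myeloid cells, and had 49.6 and 41.2, against 18.2 to 34.7. As a gene Itgam was not above all others in both bone marrow libraries, nor was any of the 20 neutrophil and myeloid genes listed below. The window chr17:34000001-34100000, with the MHC class I gene H2-K1 among its 7 protein-coding genes, had 120 and 83.5, against 49.9 to 82.4. The window with Lmx1b (chr2:33600001-33700000) had 108 and 92.0 against 48.3 to 81.2. Each of these 5 windows, picked by smallest p, was higher in both bone marrow libraries than in the other 10, as were 411 (1.58%) of all windows tested, while 468 (1.8%) lay below the other 10 in both.

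Among the lower windows, that of Cers6 (chr2:68800001-68900000) had 31.9 and 27.5 AP positions per 1000000 positions in bone marrow and 32.9 to 64.1 elsewhere. Another 3 hold no protein-coding gene. The window chr12:27900001-28000000 had 26.6 and 31.7 against 37.9 to 61.2, whereas for chr9:111900001-112000000 and chr15:69600001-69700000 the ranges overlapped. The last had only 3 and 19 positions in the bone marrow libraries. The windows of highest density in bone marrow were high in every library. The first, chr11:3100001-3200000 with Sfi1, had 1171 and 1163 per 1000000 positions in bone marrow, below the 1220 to 1588 of the other libraries. That of the Ugt1a family (chr1:88200001-88300000) had 406 and 403 against 376 to 459. A window of chromosome 17 (39800001 to 39900000) had 489 and 306, against 188 to 432, and was called by edgeR without liver 2 (adjusted p = 0.00394) and under no other alternative. Windows on chromosome 1 that start at 85200001 and 85500001 had 218 and 211, and 179 and 153.

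The genes of highest LPKM-AP in bone marrow lie in the same places. Pisd-ps1, a transcribed pseudogene that overlaps Sfi1, had 18.1 and 17.8 in bone marrow and 11.6 to 25.2 elsewhere. Sfi1 followed, and then Hjurp, a chaperone of centromeric histone, with 5.94 and 5.68 against 4.97 to 6.80. Mroh2a had 5.37 and 5.36 against 4.19 to 6.73, and C130026I21Rik 4.13 and 3.76 against 4.08 to 5.37. Reads from near-identical copies of such loci may be placed at 1 of them, so their levels are uncertain.

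Genes of the cell types of marrow were described by lists, from which no member passed the adjusted threshold in edgeR under any alternative. Of the 14 haematopoietic stem and progenitor genes 7 were higher and 7 lower than in the other tissues, with a median log2 difference of 0.01, close to that of all genes tested (0.04). Leaving out single libraries turned the sign of the median in 9 of the 13 lists, the exceptions being the erythroid, T and NK cell, neuronal and spermatogenesis lists. At equal depth the erythroid median was -0.03 and that of the T and NK cell list 0.04, both of the opposite sign. Mecom, a transcription factor of stem cells, had an LPKM-AP of 0.495 and 0.583 in bone marrow and 0.560 to 0.665 in the others. Runx1, another such factor, had 0.907 and 0.814 against 0.521 to 0.900. At an unadjusted p under 0.05 Lmo2 was higher and Mecom lower. The 20 neutrophil and myeloid genes had a median of -0.06, which was positive without each of 5 libraries in turn, up to 0.26 without liver 2. Spi1, the myeloid factor PU.1, had 0.796 and 0.918 against 0.432 to 0.871. In the list as a whole the summed density was 202 and 171 per 1000000 positions, inside the range of the others (136 to 211). The 16 erythroid genes tested had a median of 0.11 with 11 of them higher. Ank1 had 0.888 and 1.02 against 0.678 to 0.983, and Sptb, the spectrin beta chain, 0.831 and 1.04 against 0.553 to 1.11.

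The lymphoid lists all had medians below 0. Of the 16 B-lineage genes 7 were higher, with a median of -0.05 that was 0.07 without bone marrow 2 and 0.04 without brain 1. Ikzf1 was above all other libraries (0.927 and 0.890 against 0.606 to 0.874) and Il7r below them (0.149 and 0.267 against 0.306 to 0.821, from 2 and 6 positions). Over all genes tested, 1.75% were above and 0.822% below all others in both bone marrow libraries. Ebf1 had 0.627 and 0.675 against 0.628 to 0.766. Of the 15 T and NK cell genes 2 were higher, with a median of -0.21, and 1 of the 2 was Lck, a kinase of T cells, at 0.981 and 0.752 against 0.144 to 0.678. In that list the summed density of 287 and 255 per 1000000 positions lay inside the range of the others (228 to 304). The immunoglobulin heavy chain locus Igh had an LPKM-AP of 0.234 and 0.273 in bone marrow, 0.237 and 0.210 in PBMCs and up to 0.268 in the other tissues. The kappa locus Igk had 0.149 and 0.152 against 0.149 to 0.187. Of the 7 antigen receptor loci tested 2 were higher, with a median of -0.06 that was 0.01 without bone marrow 1. The 11 megakaryocyte genes had a median of -0.08 (-0.23 to 0.09 without single libraries) and the 13 genes of stroma and bone 0.03 (-0.21 to 0.10). Kitl, the stem cell factor made by stroma, was below all others (0.481 and 0.449 against 0.490 to 0.729).

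Base excision repair genes, whose products act on AP sites, were 12 of 20 higher with a median of 0.11, which was -0.05 without bone marrow 2. Against PBMCs the median of this list was -0.03. Nthl1 (2.59 and 1.72 against 0 to 1.48) and Mpg (2.86 and 2.39 against 0.532 to 2.34), both DNA glycosylases, were above all others, on 9 and 10, and 10 and 14 positions. Over all genes tested, 1.75% were above all others in both bone marrow libraries. Parp1 had 1.38 and 1.05 against 0.811 to 1.40. Lists of other tissues gave values of the same size. The hepatocyte list had 7 of 12 genes higher with a median of 0.06 and 2 genes above all others (Apoa1 and Ahsg), the spermatogenesis list 8 of 12 with 0.07, and the cardiac list 5 of 12 with -0.06, which was 0.07 without brain 1, 0.22 without heart 1 and 0.05 without sperm 1. The neuronal list, with 7 genes over 500 kb, had 1 of 14 higher with a median of -0.12. Its member Nrxn3 had 0.445 and 0.424 in bone marrow against 0.425 to 0.506. At an unadjusted p under 0.05, 6 genes of the 13 lists were higher and 7 lower, where each list had 7 to 20 members tested. Over all genes tested 2.62% were higher and 1.77% lower. Of the 7 lower genes, 3 were among the 14 of the neuronal list.

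Among whole chromosomes, Y was the one without overlap between the groups. It held 0.104% of the AP positions of bone marrow 1 and 0.105% of those of bone marrow 2, and each of the 10 other libraries had more, from 0.111% in brain 1 to 0.168% in PBMC 1. The difference of the means was -0.0238 points (two-sided exact permutation test, p = 0.121), and counting each direction by itself and doubling the smaller tail, a choice made after the values were seen, gave p = 0.0303 in the exact permutation test. Chromosome X held 1.58% and 1.62%, against 1.58% to 1.83% (exact permutation test, p = 0.197). On the 19 autosomes the ratio of the bone marrow mean to that of the others went from 0.969 on chromosome 14 to 1.04 on chromosome 11, and on 0 of them did both bone marrow libraries lie outside the range of the others. It was above 1 on the 4 chromosomes with the most protein-coding genes per Mb (7, 11, 17 and 19), at 1.02 to 1.04. Over the 19 autosomes the Spearman correlation of the ratio with gene density was 0.839, a description, since the chromosomes share the same 12 libraries.

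The bone marrow libraries were hardly more like each other than like libraries of other tissues. At equal depth the Spearman correlation of AP counts over 26212 windows was 0.882 for the bone marrow pair, which share their tissue and gene content, and between 0.828 and 0.882 with a median of 0.874 for the 20 pairs of a bone marrow library with another. Replicates of the other 5 tissues had 0.832 to 0.872. Over 41374 genes it was 0.261 for the bone marrow pair and 0.196 to 0.260 for the 20 mixed pairs. Exact nucleotides in common made up 0.396% of the smaller library in the bone marrow pair and 0.185% to 0.430% in the mixed pairs, a share that moves with the depth of both libraries.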

How the data were processed

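AP sites were mapped by SSiNGLe-AP, and single-strand breaks (SSBs) of the same samples by SSiNGLe, in 6 tissues with 2 replicates each. The authors deposited 1 list of single-nucleotide positions per library with a strand and a read count, as unnormalised counts, and replicates were not pooled. The submitters' processing notes name the builds mm10 and GRCm38, while aligner and filters are not given in the sources used here. From these lists each position on chromosomes 1 to 19, X and Y was used 1 time, and positions were summed over RefSeq GRCm38.p6 gene spans, over the 1000 bp on each side of gene ends and over 100 kb windows. A window was used if it held a position in any AP library (26212 of 27234).

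Shares were compared by a two-sided exact permutation test over the 66 choices of 2 of 12 libraries, with Benjamini-Hochberg adjustment over 10 measures. Positions per gene and per window were tested with edgeR 4.0.16 (quasi-likelihood, TMM, all 12 libraries in 1 fit with tissue as the term, Benjamini-Hochberg at 0.05 over all features tested) among features with a position in at least 20% of the libraries. DESeq2 1.42.0 (Wald test) and limma 3.58.1 on log2(LPKM + 1) were alternatives, as were other scalings, filters, distances and window sizes, thinning to 460719 positions and leaving out libraries. The scripts were tested on simulated counts. Genes and windows were named by smallest p in each direction, up to 5, if the mean over libraries was 20 positions or more, and by highest level in bone marrow. The members and lists were chosen with earlier results of these data known. Library sizes of 460719 to 963258 positions give 95% Wilson intervals of at most ±0.140 points for the share in genes. A gene and a window that this rule names are not reported here.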

Additional observations from a re-analysis of the deposited data

Results flagged for a closer look

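The SSB libraries of the same bone marrow samples stand outside the AP comparison and gave the same 7 compartment measures with wider margins. The mean share of SSB positions within 1 kb of 5′ ends was 4.25% in bone marrow (4.56% and 3.95%), and the 10 other SSB libraries had 2.43% to 3.40%. Genes held 63.0% (63.5% and 62.5%, against 59.8% to 61.4%), protein-coding genes 54.5% (55.0% and 54.1%, against 51.1% to 52.8%) and 3′ ends 2.44% (2.48% and 2.41%, against 2.02% to 2.23%). Gene-dense windows held 7.98% of the SSB positions of bone marrow (8.34% and 7.63%, against 5.71% to 6.77%) and gene-free windows 7.62% (7.26% and 7.98%, against 8.62% to 9.88%). The ratio of density between these windows was 4.34 (4.74 and 3.94, against 2.39 to 3.24). These 7 were picked as the measures in which both bone marrow SSB libraries lay beyond all 10 others. In the AP libraries at least 1 other library lay between the bone marrow libraries or beyond the nearer one in each of them. The SSB shares on the gene's own strand overlapped (52.6% and 53.6%, against 53.1% to 55.8%). So did those on chromosome X (1.57% and 1.70%, against 1.32% to 1.83%) and Y (0.0831% and 0.101%, against 0.0845% to 0.170%). The AP shares on Y did not overlap. The difference between the assays was not tested.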

How the results depend on the processing

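Of 205 alternatives for the 10 shares, 200 left direction and side of the threshold (unadjusted, 0.05) as they were. With tissue means as units, a test of 6 splits, no share could pass, so there the side of the threshold was fixed in advance. The share at 5′ ends passed at equal depth (difference 0.274 points, exact permutation test, p = 0.0455) and with a distance of 5000 bp (0.569 points, exact permutation test, p = 0.0455), and the Y share, at -0.0238 points, passed with the smaller tail doubled (exact permutation test, p = 0.0303). The share on the gene's own strand changed sign without sperm (0.0326 points), and leaving out single libraries gave -0.242 to 0.0397 points. Without 1 bone marrow library no share can go below p = 0.0909 in the exact permutation test. For genes against the other 5 tissues, DESeq2 called 1 gene, limma 15 and edgeR on protein-coding genes 1, and against PBMCs limma called 14. In windows edgeR called 1 without sperm, and 0 to 2 when single libraries were left out. The higher share of windows at an unadjusted p under 0.05 was 55.9% in edgeR and 23.7% in limma. The correlation of replicate differences between tissues was -0.0845 to 0.0482 in 15 tissue pairs, 0 of them above 0.1. With so few positions per feature, this cannot show whether a replicate number stands for the same animal in each tissue. With the replicate block edgeR called 0 genes against the other tissues (1617 at an unadjusted p under 0.05), 0 against PBMCs (1312) and 0 windows (1401). Of 706 alternatives for 30 named genes and windows, 701 kept direction and side of the threshold and 5 passed it. Of 311 list medians 68 moved by more than the replicate spread, and of 62 levels 13 did. Depth limits single genes, with a median of 6 and 9 positions per protein-coding gene in bone marrow.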
